A study of Mus musculus with 40 samples.

Results

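Matrix Gla protein (Mgp) and 6 genes of the small leucine-rich proteoglycan (SLRP) family, Bgn, Dcn, Lum, Fmod, Ogn and Prelp, were followed across cultured mouse melanoma cells. The members were chosen by name, 7 of the 51789 Ensembl genes in the count table, and each was found by its identifier and gene symbol. Mgp was proposed because it was higher with WT-Bmal1 in aC3 cells, so the values of the aC3 comparisons that hold WT-Bmal1 libraries are a description with no test. QuantSeq, which reads the 3′ ends of polyadenylated transcripts, was run on 40 libraries, 2 for each of 20 groups.

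All cells were mouse melanoma lines grown in culture without synchronization stated in the labels. B16-F10 cells were a control clone (Ctrl) and a clone labelled Bmal1 KO. YUMM2.1 cells carry, among other alleles, mutant Braf, Cdkn2a +/- and a stabilized β-catenin allele (Bcat STA/+), and YUMM1.7 is another line of the same mouse melanoma series. aC3 is a single CRISPR clone of YUMM2.1 without Bmal1, so its cells share whatever else that clone carries. In YUMM2.1, aC3 and YUMM1.7, a lentivirus with a GFP marker brought in an empty vector (EV), WT-Bmal1, or dHLH-Bmal1, a Bmal1 without its basic helix-loop-helix DNA-binding domain, and GFP-positive cells were sorted. Labels write the last construct as bHLH or dH. A further 9 groups came from the 3 transduced YUMM2.1 cell types, to which was added a puromycin-selected scrambled hairpin (shNC) or 1 of the hairpins shMyh9#2 and shMyh9#4 against Myh9. The study calls its RNA samples biological replicates, but neither it nor the labels say whether the 2 libraries of a group came from separate cultures, so p-values measure only the spread between these libraries.

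Mgp is a small secreted protein with vitamin K-dependent γ-carboxyglutamate residues that binds calcium and bone morphogenetic proteins and keeps cartilage and arteries from calcifying. SLRPs are secreted proteins with leucine-rich repeats and, in most members, glycosaminoglycan chains, which bind collagen fibrils and growth factors such as TGF-β. In skin and tumours they are known mainly as products of fibroblasts and other stromal cells. Biglycan (Bgn) and decorin (Dcn) carry chondroitin or dermatan sulphate. Lumican (Lum), fibromodulin (Fmod), osteoglycin (Ogn) and prolargin (Prelp) belong to other classes of the family, of which lumican, fibromodulin and osteoglycin can carry keratan sulphate.

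In the GRCm38 build, Mgp (ENSMUSG00000030218) lies on chromosome 6 from 136872435 to 136875823 on the minus strand. Bgn (ENSMUSG00000031375) lies on chromosome X from 73483602 to 73495933 on the plus strand. Dcn (ENSMUSG00000019929; chromosome 10, 97479609 to 97518143) and Lum (ENSMUSG00000036446; chromosome 10, 97565128 to 97572703) are neighbours on the plus strand, 46984 bases apart. Prelp (ENSMUSG00000041577; chromosome 1, 133910304 to 133921414, minus strand) and Fmod (ENSMUSG00000041559; chromosome 1, 134037254 to 134048277, plus strand) are 115839 bases apart. Ogn (ENSMUSG00000021390; chromosome 13, 49608046 to 49624501, plus strand) sits 15223 bases from the SLRP gene Omd, with no protein-coding gene between the 2 genes in any of these 3 pairs. Ogn overlaps Cenpp and Prelp overlaps Gm15851, each on the opposite strand, and the strand of counting was not given in the sources used here, so reads of these partners could not be told apart.

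The promoters of Bgn and Prelp are printed because these members passed the test most often, Bgn upwards and Prelp downwards. Both are the 250 bases upstream of the RefSeq start in GRCm38.p6, read 5′ to 3′ on the strand of the gene, at chrX:73483351-73483600 for Bgn and chr1:133921402-133921651 for Prelp. Capitals mark matches to the GC box GGGCGG on either strand.
Bgn: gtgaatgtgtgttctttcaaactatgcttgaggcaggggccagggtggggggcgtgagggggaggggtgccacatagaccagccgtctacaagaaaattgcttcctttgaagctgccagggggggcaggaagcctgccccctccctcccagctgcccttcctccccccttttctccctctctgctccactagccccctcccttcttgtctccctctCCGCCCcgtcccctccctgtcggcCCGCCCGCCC
Prelp: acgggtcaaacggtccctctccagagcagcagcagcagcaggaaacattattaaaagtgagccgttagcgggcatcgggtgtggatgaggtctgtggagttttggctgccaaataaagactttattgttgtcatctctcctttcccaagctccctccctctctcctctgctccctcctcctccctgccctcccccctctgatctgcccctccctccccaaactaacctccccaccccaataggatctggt
The Bgn window held 3 GC boxes, which start 34, 10 and 6 bases before the start site, and the last 2 overlap. Of 32851 RefSeq promoter windows of this length, 32.7% held a GC box. The Prelp window held none, and neither window held the E-box CACGTG (6.02% of windows), the AP-1 site TGANTCA (6.75%), a CArG box (1.47%), the TATA box TATAAA (12.4%) or the SOX core ACAATG (10.7%), all searched on both strands. GC content was 64.4% with 7 CpG dinucleotides in Bgn and 55.6% with 5 in Prelp, beside medians of 52.4% and 6 over all windows. Fmod and Ogn also had a window, and Ogn held 2 overlapping TATAAA matches that start 229 and 227 bases before its start site. Mgp, Dcn and Lum had no entry in that table.

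Library totals ranged from 3643332 to 22970049 counts, with a median of 10021164.5. Levels are given as CPM, the count relative to the library total after TMM scaling over all 40 libraries. The names of 2 YUMM2.1 libraries were in doubt, EV replicate 2 and WT-Bmal1 replicate 1, because another table of the same libraries carries these names the other way round. The tests of members that rest on them are given as labelled, with the names exchanged and without the doubted libraries in the comparison, and levels and correlations as labelled. Arntl, the gene of Bmal1, averaged 13.0 CPM in B16-F10 Ctrl and 12.4 CPM in the clone labelled Bmal1 KO, and 31.6 CPM in aC3 EV beside 14.99 CPM in YUMM2.1 EV. Counts at the 3′ end need not show an edited coding sequence, so they do not check these labels. With shNC, Myh9 averaged 681 CPM in EV cells, 974 in WT-Bmal1 cells and 892 in dHLH-Bmal1 cells, and it was between 238 and 279 CPM with shMyh9#2 and between 481 and 663 CPM with shMyh9#4.

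Mgp and Bgn were high in YUMM1.7 and close to absent in B16-F10, whereas Prelp was near 0 in YUMM1.7 and highest in YUMM2.1 and aC3. Mgp averaged 781 ± 32.7 CPM (SD, n = 2) in YUMM1.7 EV, 764 ± 12.4 in YUMM1.7 dHLH-Bmal1 and 671 ± 46.1 in YUMM1.7 WT-Bmal1, and at most 15.98 ± 11.05 CPM in any other group. Between the YUMM1.7 groups and the rest of the order of Mgp there was no overlap, but 13 of the 19 neighbouring pairs in that order overlapped. Bgn averaged 881 ± 14.0 CPM in YUMM1.7 dHLH-Bmal1, its highest group, and its order was better separated, with 9 of 19 neighbouring pairs overlapping. For Prelp the highest means were 15.7 ± 0.189 CPM in YUMM2.1 EV, 14.6 ± 1.34 in aC3 WT-Bmal1 and 14.0 ± 1.28 in YUMM2.1 WT-Bmal1, 3 neighbours whose libraries overlapped, and 14 of 19 pairs overlapped in all.

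**Figure D1:**
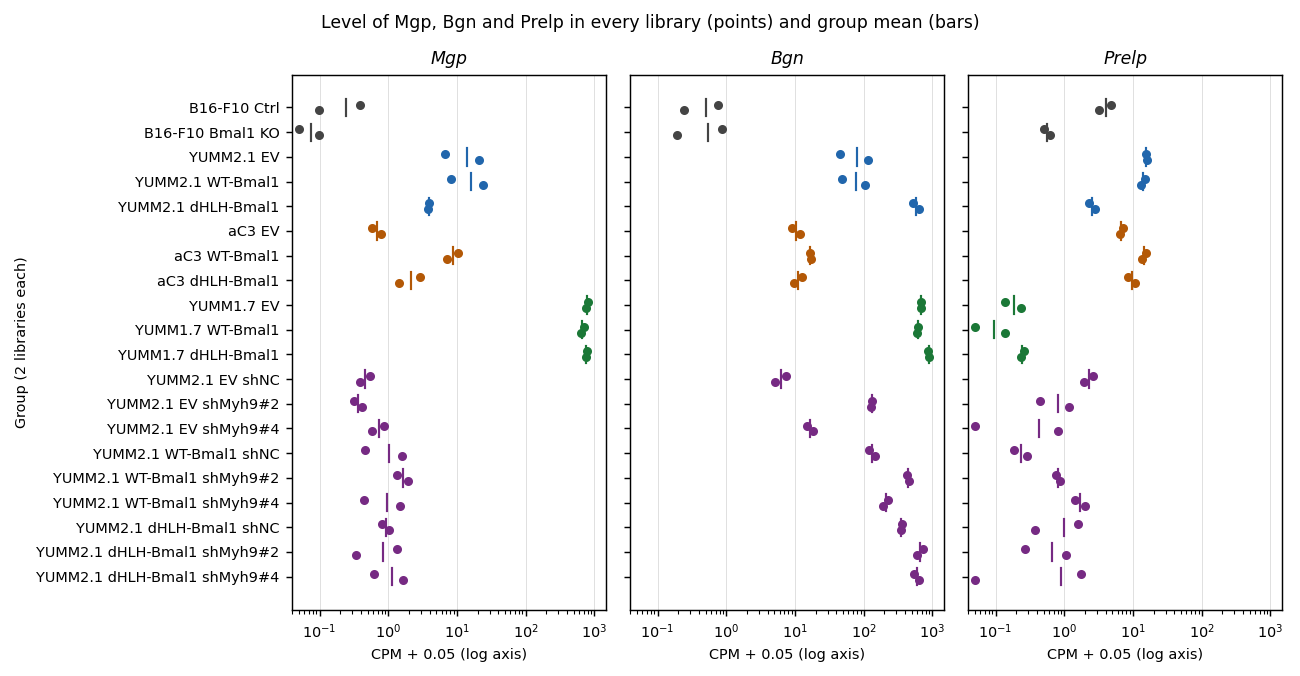
Levels of Mgp, Bgn and Prelp in every library, as CPM plus 0.05 on a log axis, with 1 row a group, a point for each of the 2 libraries and a bar for the mean. Mgp lies between 638 and 804 CPM in YUMM1.7 and at or under 23.8 CPM elsewhere, Bgn spans the axis from B16-F10 to YUMM1.7, and Prelp is near 0 in YUMM1.7 and in some libraries with a hairpin.

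The lines were set against each other by their control cells, in a fit of 8 libraries. Mgp had 804 and 758 CPM in YUMM1.7 EV against 6.68 and 21.1 CPM in YUMM2.1 EV, groups that lie far apart. Its log2 fold change was 5.85 (standard error 0.399), or 57.9-fold, with an edgeR quasi-likelihood adjusted p of 2.7e-06, called adjusted p from here on. Bgn was 8.45-fold higher in YUMM1.7 EV (log2 3.08, standard error 0.353, adjusted p = 9.5e-05). Ogn had 5.06 and 5.98 CPM against 1.00 and 0.865 CPM, 5.84-fold higher (adjusted p = 0.0015). Dcn had 116 and 86 counts in YUMM1.7 EV and 0 in both YUMM2.1 EV libraries, at least 32.1-fold higher against 3 counts per library (adjusted p = 2e-04). Prelp went the other way, with 186 and 146 counts in YUMM2.1 EV against 1 and 2 in YUMM1.7 EV, a ratio of 116 with an exact 95% counting interval of 39.4 to 566 (adjusted p = 1.4e-06). Dcn passed the filter on low counts only through YUMM1.7, where it is high, so its direction was fixed by the filter. Prelp passed it only through lines other than YUMM1.7, so its direction was fixed in the same way. Of all genes tested, 37.1% were called, 17.8% higher and 19.3% lower. With the doubted names exchanged the log2 fold changes were 6.71 for Mgp and 3.84 for Bgn, and without YUMM2.1 EV replicate 2, which leaves 1 library that is assumed to vary like the other groups, 6.87 and 3.89. Each of the 5 calls stayed past the threshold with the exchange, where 9.76% to 62.4% of genes were called over the comparisons between lines.

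B16-F10 Ctrl stood at the other end. It had 7 and 1 counts of Mgp and 15 and 4 of Bgn, beside 9065 and 8110 and 7594 and 7229 in YUMM1.7 EV. The log2 fold changes of B16-F10 Ctrl against YUMM1.7 EV were -11.94 for Mgp (standard error 0.594, adjusted p = 1.0e-07) and -10.52 for Bgn (adjusted p = 1.8e-07). Dcn was also lower, by a ratio of 182 with a counting interval of 49.8 to 1514, and so was Ogn (log2 -5.19, adjusted p = 1.8e-05). Prelp was higher in B16-F10 Ctrl, 100 and 66 counts against 1 and 2, a ratio of 30.7 with an interval of 10.3 to 150 (adjusted p = 1.6e-05). In this pair of lines 54.5% of genes were called, 26.3% higher and 28.2% lower. Dcn and Ogn had 2 and 0 and 4 and 2 counts in B16-F10 Ctrl. Mgp, Bgn, Dcn and Ogn passed the filter only through lines other than B16-F10, and Prelp only through lines other than YUMM1.7. The direction of each of these calls was thus fixed by the filter.

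aC3 EV had less Mgp, Bgn and Prelp than its parent line. Mgp had 0.532 and 0.736 CPM in aC3 EV, 6 and 8 counts, below both YUMM2.1 EV libraries. The log2 fold change against YUMM2.1 EV was -4.38 for Mgp (standard error 0.665, adjusted p = 0.011), -2.93 for Bgn (0.395, 0.0059) and -1.20 for Prelp (0.244, 0.043), while Ogn differed by -0.27 (adjusted p = 0.89). The low aC3 EV values are among those that brought Mgp forward, so its p is not independent of that choice. Mgp also passed the filter only through other lines, so its direction was fixed by the filter. The 3 calls stand beside 1.75% of genes called, 1.3% lower. They rest on the 2 aC3 EV libraries: without replicate 1 the adjusted p rose to 0.193 for Mgp, 0.156 for Bgn and 0.294 for Prelp, and without replicate 2 to 0.179, 0.120 and 0.343. The call of Prelp was also lost without either YUMM1.7 EV library (adjusted p = 0.0766 and 0.0774). With the doubted names exchanged, Mgp (-3.53), Bgn (-2.17) and Prelp (-1.17) were each called, where at least 9.76% of genes were called. Without YUMM2.1 EV replicate 2 the 3 values were -3.37, -2.12 and -1.19.

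Among the YUMM2.1 groups without a hairpin, Bgn was higher and Prelp lower with dHLH-Bmal1. Bgn had 522 and 646 CPM with dHLH-Bmal1, 45.6 and 115 CPM with EV and 48.0 and 105 CPM with WT-Bmal1. The dHLH-Bmal1 libraries lay above all 4 others, and in EV and WT-Bmal1 replicate 2 lay far above replicate 1. Against EV its log2 fold change was 2.89 (standard error 0.506, adjusted p = 0.014), or 7.41-fold, and against WT-Bmal1 2.94 (0.507, 0.013). Prelp had 2.26 and 2.71 CPM with dHLH-Bmal1, 15.5 and 15.8 CPM with EV and 14.9 and 13.1 CPM with WT-Bmal1, again with no overlap. It fell by 2.64 on the log2 scale against EV (standard error 0.239, adjusted p = 0.0019), to 0.161 of the EV level, and by 2.48 against WT-Bmal1 (0.239, 0.0024). Thus 1 member rose and 1 fell of the 4 that passed the filter, in each of 2 comparisons in which 13.2% (6.51% higher, 6.72% lower) and 13% (6.44% higher, 6.6% lower) of genes were called.

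Both calls held as labelled, exchanged and without the doubted libraries, except that leaving out WT-Bmal1 replicate 1 alone gave Bgn an adjusted p of 0.0903 against WT-Bmal1 (log2 2.48). With the names exchanged the log2 fold changes of Bgn were 3.66 against EV and 2.43 against WT-Bmal1, and without both libraries 3.69 and 2.48. Without both, EV and WT-Bmal1 have 1 library each and the spread comes from dHLH-Bmal1 alone. For Prelp they were -2.60 and -2.52 with the exchange and -2.64 and -2.39 without both libraries.

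Mgp in these cells depended on the names and on the replicate number. It had 3.87 and 3.76 CPM with dHLH-Bmal1, 6.68 and 21.1 CPM with EV and 8.17 and 23.8 CPM with WT-Bmal1, so dHLH-Bmal1 was lowest in every case and replicate 2 was high in EV and WT-Bmal1. The log2 fold change of dHLH-Bmal1 was -1.83 against EV (standard error 0.674, adjusted p = 0.13) and -2.05 against WT-Bmal1 (0.672, 0.096), neither past the threshold. As labelled, same-numbered YUMM2.1 libraries deviated together, and with the replicate number as a block the values were -1.61 (adjusted p = 0.00998) and -1.84 (0.0049), both past it. This rests on the names, since with the doubted pair exchanged the correlations of same-numbered libraries were between -0.151 and 0.192. The block raised the share of genes called to 27.1% and 26.0%. With the names exchanged Mgp was called lower against both (-0.94, adjusted p = 0.0151, and -2.54, 0.00014), and without both libraries against WT-Bmal1 (-2.63, 0.00016) but not against EV (-0.80, 0.23). DESeq2 also called both (adjusted p = 0.0313 and 0.0134), and leaving out EV replicate 1 or 2 gave 0.0366 and 0.0398 against WT-Bmal1.

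WT-Bmal1 against EV in YUMM2.1 had no gene called by edgeR as labelled, 0% of 14323, with 98 at an unadjusted p under 0.05 and 1 called by DESeq2. The log2 fold changes of the members were 0.22 for Mgp (standard error 0.615), -0.05 for Bgn (0.478), 0.29 for Ogn and -0.15 for Prelp, each with an adjusted p of 1. With the names exchanged, 0.705% to 28.7% of genes were called over the YUMM2.1 comparisons. Mgp was then higher with WT-Bmal1 by 1.59 (adjusted p = 0.0136) and Bgn by 1.23 (0.0057). Without both libraries, a single library in each group, they were 1.83 (0.139) and 1.21 (0.234). Which of the 2 namings is right was not settled here.

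**Figure D2:**
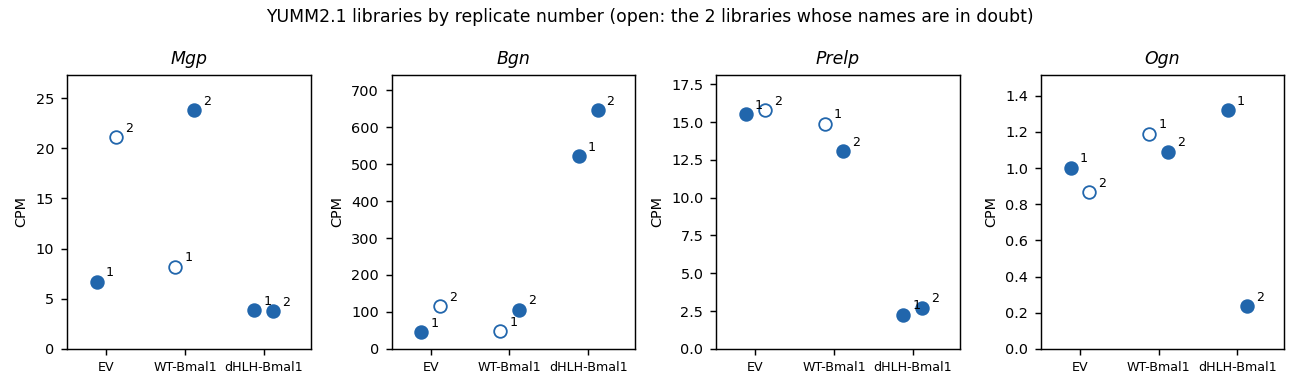
CPM of Mgp, Bgn, Prelp and Ogn in the 6 YUMM2.1 libraries without a hairpin, labelled by replicate number, with open circles for the 2 libraries whose names are in doubt. The open EV circle lies beside WT-Bmal1 replicate 2 for Mgp and Bgn, and the open WT-Bmal1 circle beside EV replicate 1, while the dHLH-Bmal1 libraries lie apart from both groups for Bgn and Prelp.

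In aC3, the values that brought Mgp forward were 0.532 and 0.736 CPM with EV, 10.3 and 7.05 CPM with WT-Bmal1 and 2.82 and 1.38 CPM with dHLH-Bmal1. WT-Bmal1 lay highest and EV lowest with no overlap, a log2 fold change of 3.74 (standard error 0.442) or 13.4-fold for WT-Bmal1 against EV and -2.03 (0.375) for dHLH-Bmal1 against WT-Bmal1. In the same comparisons Bgn differed by 0.67 (0.200) and -0.57 (0.201) and Prelp by 1.11 (0.209) and -0.60 (0.204), given with no test. The 2 contrasts had 11.2% and 0.877% of genes called. For dHLH-Bmal1 against EV, which shares with the first the EV libraries that brought Mgp forward, so that its p is not independent of that choice, Mgp was 3.28-fold higher (log2 1.71, standard error 0.506, adjusted p = 0.044), on 29 and 13 counts against 6 and 8. It was the only call among 3 members that passed the filter, where 10.9% of genes were called (4.79% higher), and its adjusted p was between 0.0595 and 0.301 without EV replicate 1, EV replicate 2, WT-Bmal1 replicate 1, WT-Bmal1 replicate 2 or dHLH-Bmal1 replicate 1. Bgn (0.10, adjusted p = 0.81) and Prelp (0.51, 0.15) did not pass the threshold. Mgp passed the filter on low counts only through the WT-Bmal1 and dHLH-Bmal1 libraries, so its direction against EV was fixed by the filter.

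In YUMM1.7, where Mgp and Bgn were high, differences between the constructs were small and Bgn alone rose. Bgn had 871 and 891 CPM with dHLH-Bmal1, 674 and 676 with EV and 619 and 608 with WT-Bmal1, 3 groups that did not overlap. dHLH-Bmal1 was 1.31-fold higher than EV (log2 0.38, standard error 0.0427, adjusted p = 0.00015) and 1.44-fold higher than WT-Bmal1 (0.52, 0.0428, 3.4e-06), where 0.63% and 2.57% of genes were called, 0.21% and 1.08% higher. Mgp had 773 and 756 CPM with dHLH-Bmal1, 804 and 758 with EV and 704 and 638 with WT-Bmal1. Its log2 fold changes were -0.22 (adjusted p = 0.11) for WT-Bmal1 against EV, -0.03 (0.88) for dHLH-Bmal1 against EV and 0.19 (0.065) for dHLH-Bmal1 against WT-Bmal1. Without WT-Bmal1 replicate 1, the first and the last had an adjusted p of 0.0044 and 0.0096.

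Dcn had counts in numbers only in YUMM1.7, with 10.3 and 8.04 CPM with EV, 5.24 and 3.80 with dHLH-Bmal1 and 3.77 and 1.94 with WT-Bmal1. EV was highest with no overlap. Dcn fell to 0.311 of the EV level with WT-Bmal1 (log2 -1.69, standard error 0.303, adjusted p = 0.035), 1 of the 4 members that passed the filter beside 0.138% of all genes (0.0941% lower). This call rests on single libraries, with an adjusted p of 0.648 and 0.119 without EV replicate 1 or 2, 0.167 without WT-Bmal1 replicate 2, and 0.0637 and 0.0557 without dHLH-Bmal1 replicate 1 or 2. For dHLH-Bmal1 against EV the log2 fold change was -1.03 (adjusted p = 0.17), with adjusted p = 0.0372 and 0.0399 without WT-Bmal1 replicate 1 or 2.

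The dHLH-Bmal1 effect on Bgn differed between the lines. It was 2.50 lower on the log2 scale in YUMM1.7 than in YUMM2.1 (difference -2.50, standard error 0.466, adjusted p = 0.0025) and 2.78 lower in aC3 than in YUMM2.1 (-2.78, 0.547, 0.0026). For Prelp the effect in aC3 exceeded that in YUMM2.1 by 3.16 (0.328, 9.9e-06). Of all genes, 12.4% were called between YUMM1.7 and YUMM2.1 (6.56% lower) and 15.5% between aC3 and YUMM2.1 (8.92% higher, 6.61% lower). The 3 differences were called with the doubted names exchanged too, at -3.27, -3.54 and 3.13, where 20.55% to 23.59% of genes were called. Without YUMM2.1 EV replicate 2 they were -3.32, -3.61 and 3.12.

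Within a line, the hairpin experiment gave the largest changes of Bgn. With shNC, EV cells had 7.46 and 5.04 CPM, WT-Bmal1 cells 119 and 144 CPM and dHLH-Bmal1 cells 356 and 353 CPM. The 3 groups lay in that order with no overlap. WT-Bmal1 was 21.1-fold higher than EV (log2 4.40, standard error 0.154, adjusted p = 9.3e-12) and dHLH-Bmal1 57.2-fold higher (5.84, 0.153, 8.2e-14). dHLH-Bmal1 was also 2.7-fold above WT-Bmal1 (1.44, 0.111, 5.2e-07). In these comparisons 31.9% (16.1% higher), 34.5% (17.2% higher) and 4.63% (2.2% higher) of genes were called. The shNC cells with EV had less Bgn than the EV cells without a hairpin (45.6 and 115 CPM), values that come from cells handled differently and were not compared by a test.

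shMyh9#2 raised Bgn in each of the 3 cell types. In EV cells it had 133 and 127 CPM, 21-fold above shNC (4.39, 0.154, adjusted p = 1.9e-11), where 14.4% of genes were called (7.46% higher). In WT-Bmal1 cells it had 427 and 451 CPM, 3.32-fold above shNC (1.73, 0.148, 1.0e-06), beside 4.76% of genes (2.35% higher). In dHLH-Bmal1 cells it had 737 and 588 CPM, 1.85-fold above shNC (0.89, 0.144, 0.0074), beside 0.559% of genes (0.296% higher), although the adjusted p was 0.132 and 0.130 without shNC replicate 1 or 2 and 0.0787 without shMyh9#2 replicate 1. On the log2 scale the rise was smaller than in EV cells by 2.65 in WT-Bmal1 cells (difference -2.65, standard error 0.236, adjusted p = 1.9e-06) and by 3.49 in dHLH-Bmal1 cells (-3.49, 0.236, 2.0e-07), where 5.18% (3.43% lower) and 3.29% (2.2% lower) of genes were called.

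shMyh9#4, after which more Myh9 RNA remained, gave smaller values in EV and WT-Bmal1 cells. In dHLH-Bmal1 cells its libraries were shallow, with totals of 3643332 counts, the lowest of all, and 6001340. Bgn had 14.8 and 18.1 CPM in EV cells, 2.62-fold above shNC (log2 1.39, standard error 0.201, adjusted p = 0.00058), where 1.71% of genes were called (1.45% higher). In WT-Bmal1 cells it had 228 and 189 CPM, 1.6-fold above shNC, and did not pass the threshold (0.68, 0.146, 0.058), where 0.236% of genes did. Leaving out either dHLH-Bmal1 shMyh9#2 library, which enters that fit only through the shared spread, gave adjusted p = 0.0345 and 0.0349. In dHLH-Bmal1 cells it had 545 and 647 CPM, 1.69-fold above shNC (0.76, 0.144, 0.0028), beside 15.1% of genes (6.28% higher), with adjusted p = 0.0672 without shMyh9#4 replicate 2.

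**Figure D3:**
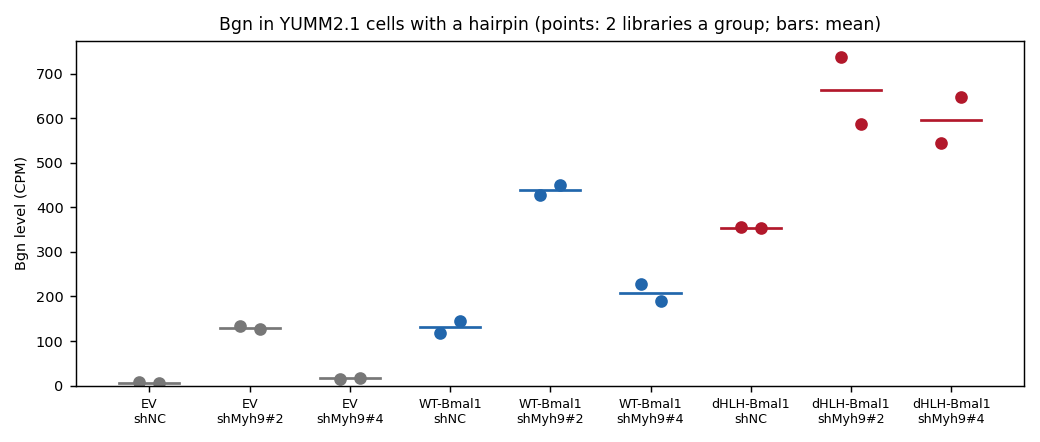
Bgn level in CPM on a linear axis in the 9 groups of YUMM2.1 cells with a hairpin, with a point for each library and a bar for the mean of 2. Levels go from 5.04 CPM in EV shNC to 737 CPM in dHLH-Bmal1 shMyh9#2, and within each construct the shMyh9 libraries lie above the shNC libraries.

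The other members stayed low in cells with a hairpin. Mgp had between 2 and 23 counts a library (0.266 to 1.87 CPM), did not pass the filter in the fit of the shNC and EV shMyh9#2 groups, and had no call in the 5 comparisons in which it was tested. Prelp had 21 and 17 counts in EV shNC, 1 and 2 in WT-Bmal1 shNC and 22 and 2 in dHLH-Bmal1 shNC. It fell in WT-Bmal1 shNC, where the ratio of EV to WT-Bmal1 was 11.96 with an exact 95% counting interval of 3.79 to 60.6 (adjusted p = 0.013), in a comparison with 15.8% of genes called lower. Prelp passed the filter on low counts in this fit only with the EV shNC libraries, where it is high, so its direction was fixed by the filter. The adjusted p was 0.0906 without EV shNC replicate 1, 0.0815 without WT-Bmal1 shNC replicate 1 and 0.0714 without its replicate 2. Ogn had its highest values outside YUMM1.7 in WT-Bmal1 shMyh9#2, 52 and 30 counts (3.09 and 2.45 CPM), against 14 and 5 counts with shNC (log2 1.148, adjusted p = 0.36).

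**Figure D4:**
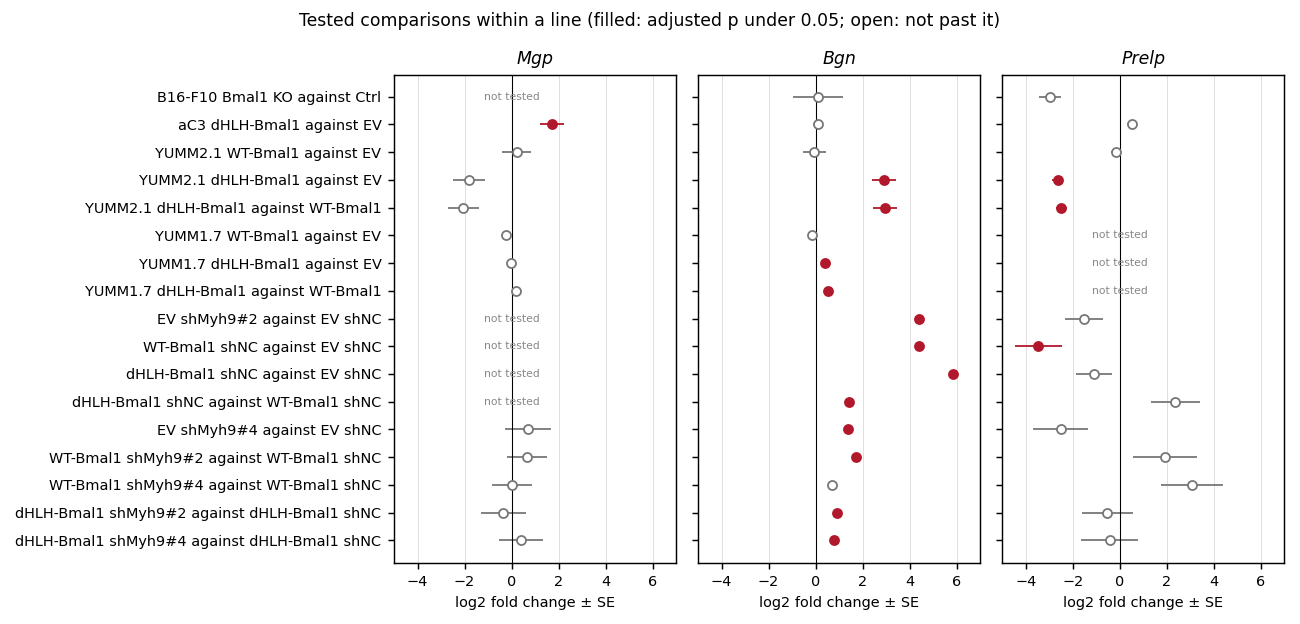
Log2 fold change with its standard error for Mgp, Bgn and Prelp in the 17 tested comparisons within a line, with filled points for an adjusted p under 0.05 and open points for the rest. Bgn is filled on the right in 12 of 17 rows and on the left in none, Prelp is filled on the left in 3 rows, and Mgp is filled once. Between 0% and 34.5% of all genes were called in these comparisons.

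In B16-F10, Prelp was the member with the most counts, 100 and 66 in Ctrl against 11 and 12 in the clone labelled Bmal1 KO, or 4.79 and 3.20 CPM against 0.453 and 0.572. The groups did not overlap, but the log2 fold change of -2.96 (standard error 0.459) had an adjusted p of 0.11, where 0.44% of genes were called. Its unadjusted p was 0.000825. DESeq2 (adjusted p = 0.00055), edgeR with no filter (0.0021) or with the replicate block (0.0252), and a single fit of all libraries (0.00091) put it past the threshold. In these settings 2.98%, 2.06%, 1.71% and 11.8% of genes were called. In the fit of B16-F10, Prelp passed the filter on low counts only with the Ctrl libraries, where it is high. Its direction there was thus fixed by the filter. Bgn, with 15 and 4 counts against 20 and 3, differed by 0.09 (standard error 1.06, adjusted p = 0.97).

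Over the 17 tested comparisons within a line, many of which share control libraries, Bgn was tested in 17 and called higher in 12 and lower in 0. Prelp was tested in 14 and called lower in 3, Mgp in 12 and called higher in 1, and Dcn in 3 and called lower in 1. The direction of the Mgp call, and of the Prelp call in WT-Bmal1 shNC, was fixed by the filter. Over these comparisons between 0% and 34.5% of all genes were called, so the counts are not a result about the members. Ogn was tested in 15 and called in 0, with adjusted p of 0.25 or more. It had 57 and 64 counts in YUMM1.7 EV, 47 and 52 in YUMM1.7 WT-Bmal1 and 48 and 55 in YUMM1.7 dHLH-Bmal1, and at most 52 elsewhere. Dcn had at most 4 counts in any library outside YUMM1.7, and none in 23 of 40.

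Lum and Fmod never passed the filter and were too low for any comparison at this depth. Lum had 24 counts over all 40 libraries, at most 5 in a library, and none in 30. Fmod had 62 counts, none in 25 libraries, and its highest group was EV shNC with 12 and 7 counts, while single libraries of aC3 EV and YUMM2.1 WT-Bmal1 had 9 and 8. The SLRP genes beside the members had few counts as well. Kera and Epyc, next to Lum, had 0 counts, and Omd, Aspn and Ecm2, next to Ogn, had 61, 26 and 167 counts over all libraries.

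**Figure D5:**
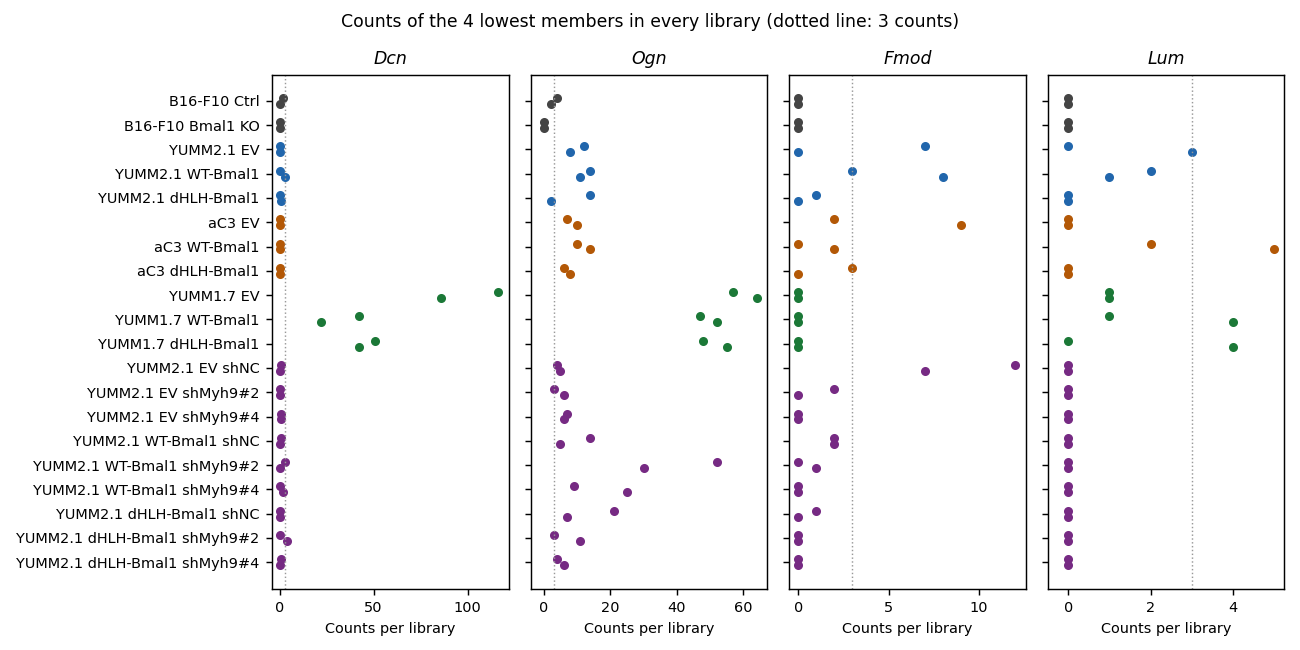
Counts per library of Dcn, Ogn, Fmod and Lum, with 1 row a group, a point for each of the 2 libraries and a dotted line at 3 counts. Dcn rises above 4 counts only in YUMM1.7, Ogn is highest there, and Fmod and Lum lie at or under 12 and 5 counts in every library.

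Genes of the pathways around the members are given as counts of those that passed the test, with the median log2 fold change beside that of all genes tested, for dHLH-Bmal1 shNC against EV shNC unless stated. In this comparison 34.5% of genes were called and the median of all genes was 0.0127. Of 11 collagen genes tested, 7 were higher and 2 lower (median 1.23). Col1a1 and Col1a2, the chains of collagen I, rose by 6.57 (standard error 0.183, adjusted p = 1.1e-13) and 5.49 (0.231, 1.7e-11), Col6a3 rose by 4.08 and Col11a1 fell by 3.41. In EV shMyh9#2 against EV shNC, where 14.4% of genes were called and the median of all genes was 0.0114, 4 of 11 were higher and 2 lower (median 0.174), with Col1a1 at 3.41 (adjusted p = 4.9e-08), Col6a3 at 2.27, Col1a2 at 1.65 and Col11a1 at -1.25.

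The list called large proteoglycans here also held the cell-surface syndecans and glypicans. Of its 11 genes tested, 6 were higher and 0 lower (median 0.371), among them Vcan, the gene of versican (4.53, adjusted p = 1.0e-07), and the glypican genes Gpc4 (2.22, 0.00047) and Gpc1 (0.96). Of 27 genes that build glycosaminoglycan chains, 12 were higher and 4 lower (median 0.254). Papss2, which makes the sulphate donor (3.76, adjusted p = 4.7e-05), the epimerase gene Dse, needed for dermatan sulphate (1.83), and B3gnt2 (1.52) were higher. With shMyh9#2 in EV cells 6 of 27 were higher and 0 lower (median 0.131), beside 7.46% of all genes higher, and 2 of 11 large proteoglycans were higher (median -0.00212), Vcan (2.75) and Gpc4 (1.502).

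Of 11 proteases and cofactors that process SLRPs, 4 were higher and 6 lower (median -0.495). Htra1 (3.30, adjusted p = 8.5e-10) and Bmp1 (1.33), which cleaves the propeptides of biglycan and of collagens, were higher, and the aggrecanase-family genes Adamts9 (-3.05, 1.7e-09) and Adamts1 (-1.75) were lower. The list for BMP and TGF-β signals held ligands, some of which members bind, and also receptors and intracellular genes such as Id2. Of its 13 genes tested, 5 were higher and 3 lower (median 0.0761), with Tgfb3 at 1.56, Id2 at 1.13 and Tgfb1 at -1.15. Of 9 genes tested from the list for the vitamin K cycle and Gla proteins, to which Mgp belongs, 1 was higher and 2 lower (median -0.343). These were Pros1 at 1.11, Fam20c, a secretory kinase counted with that list, at -1.30 and Prrg4 at -0.88. Of 7 calcification genes 1 was higher and 2 lower (median -0.432), Ank, which exports pyrophosphate, at 1.43, Enpp1, which makes it, at -2.25 and the phosphate carrier Slc20a1 at -0.80. Of the other SLRP and related genes only Podnl1 and Tsku were tested, and Podnl1 was higher (2.22, adjusted p = 0.0018).

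In YUMM2.1 without a hairpin, dHLH-Bmal1 against EV had 5 higher and 2 lower of 12 collagen genes as labelled, 7 and 3 with the names exchanged and 4 and 2 without the doubted libraries, which are beside 13.2%, 28.7% and 11.9% of genes called. Their medians were 0.61, 0.658 and 0.554, beside -0.0113 for all genes as labelled. In the same 3 settings, large proteoglycans were 3, 4 and 4 higher and 1, 1 and 0 lower of 11, and glycosaminoglycan genes 5, 8 and 6 higher and 2, 2 and 1 lower of 28, 28 and 29. Podnl1 was higher (3.67, adjusted p = 0.0064) and Chadl lower (-2.99, 0.018), and both were called in the other settings. In aC3, dHLH-Bmal1 against EV had 3 of 12 collagen genes higher, Col5a3 (0.78), Col6a2 (0.75) and Col6a1 (0.40), and 3 of 10 large proteoglycans higher and 1 lower, with medians of 0.316 and 0.0628 beside 0.0111 for all genes, of which 10.9% were called. Ggcx, the carboxylase that makes Gla residues, was the one vitamin K gene called there (0.84, adjusted p = 0.00063). In YUMM1.7, dHLH-Bmal1 against EV had 2 of 11 collagen genes higher, Col6a2 (0.71, adjusted p = 0.00013) and Col5a3 (0.60), 0 of 10 large proteoglycans called, and 2 of 5 calcification genes lower, Slc20a2 (-0.65) and Spp1 (-0.33). The medians were 0.0856, -0.0285 and -0.151, beside -0.00305 for all genes, of which 0.63% were called. In B16-F10 no gene of any of these 8 lists was called by edgeR, where 1715 of all 14556 genes had an unadjusted p under 0.05 and 433 were called by DESeq2.

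Markers of other cell types were measured in the same libraries, since in bulk RNA fewer cells of a type and less RNA per cell cannot be told apart. The 10 melanocytic markers summed to between 20140 and 26580 CPM in B16-F10 and 10.7 to 14.8 CPM in YUMM1.7. In YUMM2.1 and aC3 the sum was mostly Sox10, and Tyr, Tyrp1, Dct, Pmel and Mlana averaged under 1 CPM outside B16-F10. In YUMM2.1 without a hairpin, Sox10 was between 429 and 539 CPM in the 4 EV and WT-Bmal1 libraries and averaged 69.1 CPM with dHLH-Bmal1, and in the corresponding shNC groups 330, 99.6 and 24.4 CPM, low where Bgn was high. The 8 fibroblast markers summed to between 2855 and 7667 CPM in the YUMM2.1, aC3 and YUMM1.7 libraries and 4.197 to 13.47 CPM in B16-F10. Nearly all of this was S100a4. In YUMM1.7, 6 of the 8 averaged at least 1 CPM, all but Thy1 and Pi16, and in YUMM2.1 and aC3 4 of 8, without Thy1, Pi16, Dpt and Fap. Of the 8, Pdgfra was between 97.0 and 109 CPM in the YUMM1.7 groups, while Thy1 and Pi16 averaged under 1 CPM there. The sum of the list in YUMM1.7, 2958 to 3144 CPM, lay below that in YUMM2.1 with a hairpin, 3324 to 7667 CPM. It lay within the range of YUMM2.1 without a hairpin, 2858 to 6761 CPM. Smooth muscle and pericyte markers summed to between 59.7 and 89.7 CPM in YUMM1.7 and at most 14.1 CPM elsewhere, chondrocyte markers to at most 4.00 CPM, osteoblast markers to at most 39.9 CPM, endothelial markers to at most 26.5 CPM and immune markers to at most 4.47 CPM. Of the 6 smooth muscle and pericyte markers only Acta2 averaged at least 1 CPM in YUMM1.7. Of the 6 osteoblast markers only Runx2 did in each line, with Dmp1 in YUMM1.7. The part of these cell types in the levels of the members was not tested.

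For each member with a group mean of at least 5 CPM, the 3 genes most like it were named by the Pearson correlation of mean log2 CPM over the 20 groups, among 14142 genes. These are descriptions over groups that share cell lines. For Bgn they were Colgalt1, a collagen galactosyltransferase gene (0.96), Vcam1, an adhesion molecule gene (0.96), and Lsp1 (0.95). For Mgp they were Airn, Lrch2 and Shc1 (each 0.93), for Dcn Arsj, Nbl1 and Ltc4s (each 0.98), for Ogn Ppp2r3a, Fam102b and Lpp (0.93, 0.92 and 0.92) and for Prelp Rdh11, a retinol dehydrogenase gene, Atp1b2 and Cyp2j9 (0.94, 0.92 and 0.91). By Spearman correlation 1 of 3 remained for Dcn (Arsj), 1 of 3 for Prelp (Rdh11) and 0 of 3 for the others. Among the members, the Pearson correlation of Mgp was 0.88 with Dcn and 0.80 with Ogn, over groups of which the YUMM1.7 groups were highest for each, and the Spearman correlations were 0.42 and 0.76. Prelp had Pearson correlations of -0.21 with Mgp, -0.43 with Bgn and -0.54 with Dcn.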

How the data were processed

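The deposited table holds RSEM expected counts per Ensembl gene for 40 mouse QuantSeq libraries, made by the authors from 75 bp single reads aligned with bowtie2 to mm10 (RSEM 1.2.3 in the submitters' processing notes). The values are whole numbers. Gene symbols came from the reference annotation and matched 99.63% of identifiers. Library totals were 3643332 to 22970049 counts, and intervals and floors cover counting error only.

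Each experiment was fitted on its own with edgeR 4.0.16 in R 4.3.3 (TMM, filterByExpr, quasi-likelihood F test), with p-values adjusted by Benjamini-Hochberg over all genes tested and a threshold of 0.05. Standard errors are the fold change over the root of F. The script was tested on simulated data. The fits held 4 libraries for B16-F10, 6 each for aC3, YUMM2.1 and YUMM1.7, 8 for the shNC groups with EV shMyh9#2, 18 for the other hairpins, 8 for the control lines and 18 for the differences between lines. DESeq2 1.42.0 was an alternative, as were its size factors, other filters, the replicate block, an exchange of the 2 doubted names, a single fit and each library left out; leaving out both doubted libraries was added after the data were seen.

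Same-numbered YUMM2.1 libraries deviated together (correlations of their deviations from the group means 0.181 to 0.393 over 3 pairs of groups), so the numbers were read as pairs there, from the data and not from a label. With the 2 doubted names exchanged these correlations were -0.151 to 0.192, so the pairing holds only for the names as labelled. The members, the 8 gene lists and the marker lists were chosen with earlier results of these data known. Named from a list were up to 4 called genes with the largest change, and genes with 3 or fewer counts in the controls were given no fitted fold.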

Additional observations from a re-analysis of the deposited data

Results flagged for a closer look

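Of the differences between effects, 6 passed the edgeR test of the difference itself. For dHLH-Bmal1 against EV, the effect on Bgn was lower by 2.50 on the log2 scale in YUMM1.7 than in YUMM2.1 (-2.501, adjusted p = 0.0025) and by 2.78 in aC3 than in YUMM2.1 (-2.777, 0.0026), and the effect on Prelp was higher in aC3 by 3.16 (3.162, 9.9e-06). The effect on Mgp was higher in aC3 than in YUMM2.1 by 3.54 (3.535, adjusted p = 0.043), a test that uses the low aC3 EV values which brought Mgp forward and is not independent of that choice. That call was lost in 12 of 25 alternatives, each of which left out a single library, with adjusted p up to 0.286, and was kept with the doubted names exchanged (2.68, adjusted p = 0.00036). For shMyh9#2 against shNC, the log2 effect on Bgn was lower than in EV cells by 2.65 in WT-Bmal1 cells (-2.65, adjusted p = 1.9e-06). In dHLH-Bmal1 cells it was lower by 3.49 (-3.493, 2.0e-07). These are ratios from unlike starting levels. Mean Bgn went from 6.25 to 130 CPM in EV cells, from 132 to 439 in WT-Bmal1 cells and from 354 to 662 in dHLH-Bmal1 cells. Groups of 2 libraries are too small for a test of single outlying libraries.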

How the results depend on the processing

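Calls of members over the comparisons of an experiment were 0 in B16-F10, 1 in aC3, 4 in YUMM2.1, 3 in YUMM1.7, 5 for the shNC groups with EV shMyh9#2, 4 for the other shMyh9 comparisons, 13 between lines and 6 for differences of effects. Of all genes, 0.44% were called in B16-F10, 10.9% in aC3, 0% to 13.2% in YUMM2.1 and 0.138% to 2.57% in YUMM1.7. For the next 3 the shares were 4.63% to 34.5%, 0.236% to 15.1% and 1.75% to 54.5%. For differences of effects they were 12.4% to 15.5% between lines and 3.29% to 5.18% for shMyh9#2. Some of the calls, as those between lines, had a direction fixed by the filter. In B16-F10 the count was 1 by DESeq2, without a filter on low counts and with the replicate block, and 2 in a single fit of all 40 libraries. That single fit gave 0 in aC3, 0 in YUMM1.7 and 1 for the other shMyh9 comparisons. Without a filter YUMM1.7 had 6, and with the 2 doubted names exchanged YUMM2.1 had 8, among them Bgn for WT-Bmal1 against EV, which turned from -0.05 to 1.232. The share of all genes called moved as well, in B16-F10 from 0.44% to 2.98%, 2.06%, 1.71% and 11.8% in the order named, with the single fit from 10.9% to 0.963% in aC3, from at most 2.57% to at most 0.163% in YUMM1.7 and from at most 15.1% to at most 12.7% for the other shMyh9 comparisons, to at most 3.16% without a filter in YUMM1.7 and to at most 28.7% with the exchange. Leaving out each library in turn gave 0 to 1 in B16-F10 (the 1 only where a lone library labelled Bmal1 KO was assumed to vary like Ctrl), 0 to 1 in aC3, 3 to 5 in YUMM2.1, 2 to 6 in YUMM1.7, 4 to 6, 3 to 5, 10 to 13 and 5 to 7 in the order above. Over all alternatives to these counts, 125 stayed within 1.5 times and 17 did not. DESeq2 gave no adjusted p to Mgp in aC3 or to Dcn in YUMM1.7, so these have no DESeq2 call. The cause of each change was not tested, and with at most 12 counts in any library outside YUMM1.7 depth limits Dcn, Lum and Fmod there. Outside YUMM2.1 the mean correlation of same-numbered libraries was between -0.00377 and 0.0904, so the block there pairs by number only.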
